A study of Mus musculus with 8 samples.

Results

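The genes described here encode the enzymes that hydroxylate newly made collagen and crosslink it once it is in the matrix: the lysyl oxidases Lox, Loxl1, Loxl2, Loxl3 and Loxl4, the lysyl hydroxylases Plod1, Plod2 and Plod3, the prolyl hydroxylase subunit P4ha2 and the transglutaminase Tgm2. They were chosen by name, as a list of 10, with earlier results of these data known. Of them, 9 were among the 20189 genes measured. Lox was not analysed here. With acetate, Tgm2, P4ha2 and Plod1 rose, by 53.7%, 28.0% and 27.5%, and none of the 9 measured enzymes passed as lower. The other 6 did not pass the test. Most of the enzymes varied far more between the 4 replicate pairs than between treatments.

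The cells were 4T1, an established mammary carcinoma line of the mouse that metastasises after grafting. Per the paper they were plated, treated in culture and harvested with trypsin. Their genotype was wild-type per the labels, with no gene altered in either group. The vehicle group (4 libraries) received water and the acetate group (4 libraries) received 5 mM acetate, both for 48 hours, and RNA was then sequenced from poly-A selected, stranded libraries. Acetate can be converted to acetyl-CoA, and the comparison asks which transcripts change when more of that precursor is supplied. Same-numbered vehicle and acetate libraries were taken as a pair. Since 1 cell line was used, the libraries stand for that line alone.

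Collagen chains are modified inside the endoplasmic reticulum before they fold. Prolyl 4-hydroxylases act on proline, which stabilises the triple helix, and lysyl hydroxylases act on lysine, which decides what kind of crosslink can later form. Outside the cell, copper-dependent lysyl oxidases turn lysine and hydroxylysine into reactive aldehydes that join neighbouring molecules, while transglutaminase 2 links glutamine to lysine in fibronectin and other proteins. In tumours these enzymes are known for stiffening the matrix, and several of the genes are classical targets of hypoxia-inducible factors.

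Promoter sequences are shown for P4ha2 and Plod1, which both rose, as the 250 bases before the RefSeq start, read 5′ to 3′ on the strand of the gene. Both come from RefSeq on GRCm38.p6, and capitals mark the hypoxia response core (ACGTG or GCGTG) and the GC box (GGGCGG), searched on both strands.
P4ha2, chr11:54100674-54100923, plus strand: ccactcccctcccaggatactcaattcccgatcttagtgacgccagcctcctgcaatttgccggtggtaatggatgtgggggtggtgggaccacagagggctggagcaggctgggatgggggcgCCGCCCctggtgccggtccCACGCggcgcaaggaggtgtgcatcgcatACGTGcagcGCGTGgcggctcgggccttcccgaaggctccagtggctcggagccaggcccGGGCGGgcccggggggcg
Plod1, chr4:147936777-147937026, minus strand: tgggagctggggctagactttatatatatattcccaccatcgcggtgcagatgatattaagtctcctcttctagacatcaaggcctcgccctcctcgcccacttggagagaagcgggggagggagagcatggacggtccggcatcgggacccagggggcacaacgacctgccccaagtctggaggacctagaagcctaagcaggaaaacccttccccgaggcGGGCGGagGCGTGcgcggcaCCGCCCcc
The P4ha2 window held 3 matches to the hypoxia response core and 2 to the GC box, and the Plod1 window held 1 and 2. GENCODE, the source of the gene spans below, gives P4ha2 an additional transcript that starts farther upstream, so the P4ha2 window lies within its gene span, but it overlaps no annotated exon. No marked match shared letters with another. The same core had 4 matches in the window of Plod3 and 1 in that of Loxl4, neither of which passed the test with acetate, and 38.6% of 32851 promoters of that length held it. The GC box was in 32.7% of promoters, with 3 matches for Loxl4 and 0 for Plod3. Both motifs are rich in G and C, which made up 70% of the window of P4ha2, 61.6% of Plod1, 55.6% of Plod3 and 76% of Loxl4. The median over all promoters was 52.4%. The windows of Plod3 and Loxl4 overlap annotated exons. An AP-1 motif (TGANTCA), found in 6.75% of promoters, had 0 matches in the windows of these 4 genes. A match is a description of letters and not a measured binding site.

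Values are normalised reads, scaled by the authors so that each library sums to 20000000, and called units below. One read was worth between 0.682 and 1.0053 units, as the libraries held between 19.9 and 29.3 M reads (M, mega). Both replicate 1 libraries stood apart from the 6 others on the first principal component, which held 62.6% of the variance. All 6 epithelial markers were measured, and their sum ran from 56700 to 75200 units in vehicle and from 61400 to 76000 in acetate. Among them Krt19 rose by 0.40 (limma, adjusted p = 2.54e-04) and Cdh1 by 0.15 (limma, adjusted p = 0.00592), and the other 4 did not pass. Of 7 fibroblast markers 4 were measured, with sums of 231 to 1530 units in vehicle and 396 to 2010 in acetate, nearly all of it Pdgfra, which rose by 0.52 on the log2 scale (limma, adjusted p = 3.72e-04). Pdgfrb also rose, by 1.40 (adjusted p = 0.0119 in limma), while Dcn (4.22 units in vehicle, 6.95 in acetate) and Fap (3.74 and 5.52) were near 0 and Lum, Thy1 and Col3a1 were not analysed here. The leukocyte markers (4 of 5 measured) summed to 97.0 to 203 units in vehicle and 100 to 213 in acetate. Most of this was Cd68, at means of 128 and 131 units, which did not pass. Ptprc (1.90 and 2.62 units) and Cd79a (2.17 and 2.10) were near 0 and did not pass. Csf1r rose by 1.08 (limma, adjusted p = 0.00774), from 13.1 to 28.4 units. The endothelial markers (3 of 4) summed to at most 7.06 units. All these markers were read in RNA from a cell line in culture, and the paper names no other cell type in it. The part of other cell types in the changes below was not tested, and in bulk RNA fewer cells of a type and less RNA per cell cannot be told apart.

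Changes were tested with limma on log2(value + 1) over all genes, with the pair as a block and Benjamini-Hochberg adjustment at 0.05. Of all genes, 8.64% passed in either direction, 5.99% higher and 2.65% lower in acetate. Of the 9 enzymes 3 passed as higher and 0 as lower. Their median log2 change was 0.14, against 0.02 over all genes. Loxl2, Loxl3, P4ha2, Plod1, Plod2 and Tgm2, 6 of the 9, were higher in the acetate library in each of the 4 pairs, as were 16.7% of all genes. In the fit that ignored the pairs 0% of genes passed, and 353 of 20189 genes but 0 of the 9 enzymes had an unadjusted p under 0.05 in limma.

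**Figure D1:**
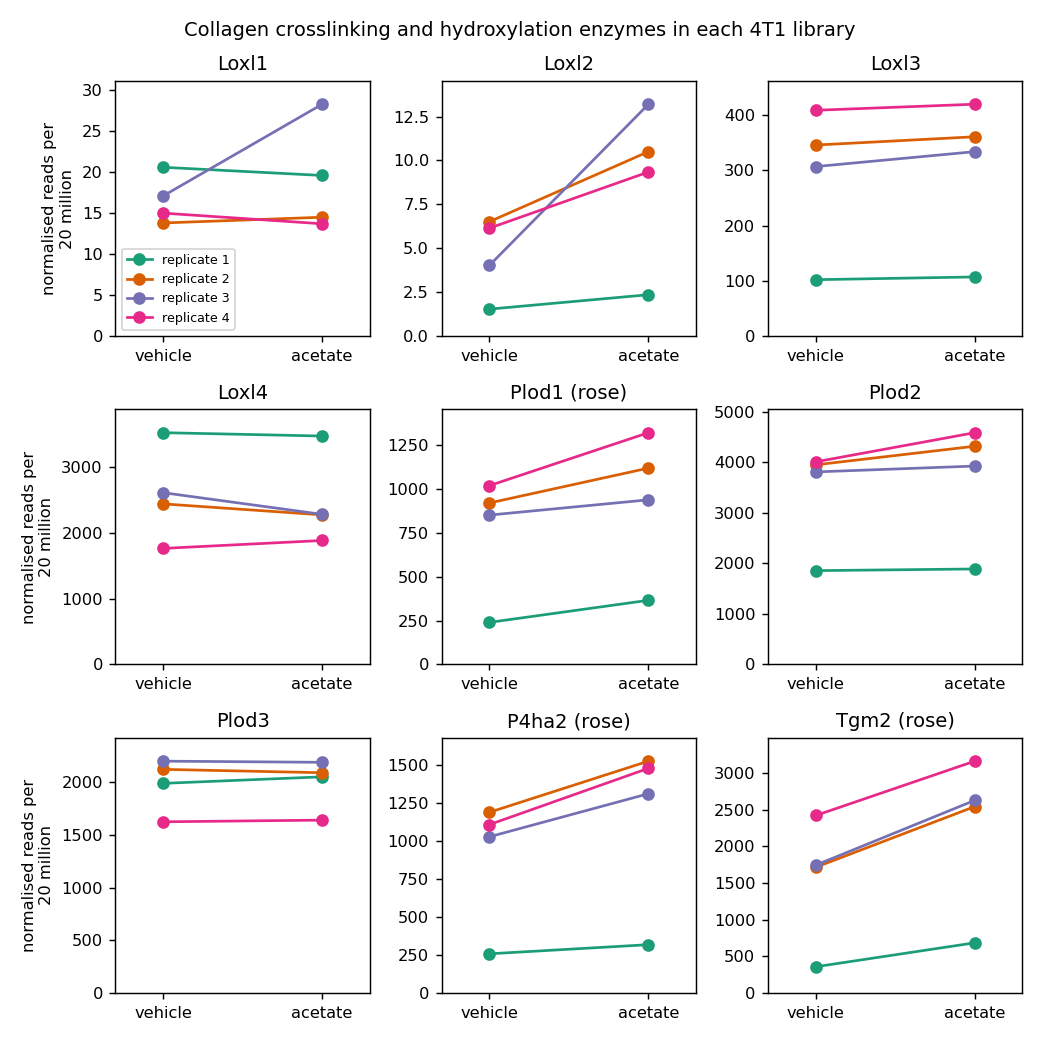
Normalised reads (units) of the 9 measured enzymes, 1 panel per gene, with vehicle and acetate on the x axis, 1 point per library and a line joining each same-numbered pair. Tgm2, P4ha2 and Plod1 rise along every line, and in most panels the pair of replicate 1 lies far below the other 3.

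Among the enzymes that modify collagen inside the cell, P4ha2, the catalytic alpha subunit of the second prolyl 4-hydroxylase isoform, rose (ENSMUSG00000018906, chromosome 11, 54100095 to 54131665, plus strand, protein-coding). Vehicle libraries 1 to 4 held 257, 1187, 1026 and 1106 units, and the acetate libraries 317, 1523, 1309 and 1476. Both libraries of replicate 1 were the lowest, so the groups overlapped over all 8 libraries, whereas among replicates 2 to 4 the highest vehicle value was 1187 and the lowest acetate value 1309. The log2 change was 0.36 ± 0.04 (SE, 95% interval 0.27 to 0.44, limma adjusted p = 3.55e-04), or 28.0% (21.0 to 35.5). The 4 pairs gave 0.30, 0.36, 0.35 and 0.42, the narrowest spread of the 3 enzymes that rose.

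Plod1, a lysyl hydroxylase that acts on lysines in the collagen helix (ENSMUSG00000019055, chromosome 4, 147909753 to 147936767, minus strand, protein-coding), also rose. Its vehicle libraries held 240, 921, 852 and 1020 units, and its acetate libraries 366, 1120, 939 and 1322. Each acetate library exceeded its own vehicle library, but the groups overlapped, also without replicate 1, since acetate replicate 3 lay below vehicle replicate 4. The log2 change was 0.35 ± 0.06 (SE, interval 0.21 to 0.49, limma adjusted p = 0.00592), or 27.5% (15.9 to 40.3). Pairs differed more than for P4ha2, with changes of 0.61, 0.28, 0.14 and 0.37, and without replicate 4 the adjusted p was 0.0866 in limma.

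Plod2, the lysyl hydroxylase of the collagen telopeptides (ENSMUSG00000032374, chromosome 9, 92542223 to 92608428, plus strand, protein-coding), had the highest mean of the 3 per length of exon (631 units per kb in vehicle). The vehicle libraries had 1855, 3947, 3807 and 4006 units and the acetate libraries 1888, 4315, 3923 and 4583. Acetate was the higher of the pair each time, by 0.03, 0.13, 0.04 and 0.19 on the log2 scale, and replicate 1 again lay lowest. The log2 change of 0.10 ± 0.03 (SE, interval 0.03 to 0.17) had an unadjusted p of 0.0121 and did not pass in limma (adjusted p = 0.0959).

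Plod3, which carries glycosyltransferase as well as hydroxylase activity (ENSMUSG00000004846, chromosome 5, 136987019 to 136996648, plus strand, protein-coding), had vehicle values of 1990, 2123, 2201 and 1625 units and acetate values of 2052, 2091, 2190 and 1641. The groups covered nearly the same range, and 2 pairs moved up and 2 down. Its log2 difference was 0.01 ± 0.03 (SE, interval -0.06 to 0.07, limma adjusted p = 0.927), an interval that reaches neither the estimate for Plod1 nor that for P4ha2. The sign of this difference was negative under median-of-ratios scaling, in edgeR and DESeq2, and without replicate 1.

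Within a library, Plod1 was compared with its family by the log2 ratio of the 2 genes, acetate minus vehicle. The ratio of Plod1 to Plod3 moved by 0.56, 0.30, 0.15 and 0.36 in the 4 pairs (mean 0.34 ± 0.17, SD), and that of Plod1 to Plod2 by 0.58, 0.15, 0.10 and 0.18 (mean 0.25 ± 0.22, SD). P4ha2 against P4ha1, the other common alpha subunit, moved by 0.22, 0.23, 0.20 and 0.15 (mean 0.20 ± 0.03, SD). All 4 pairs thus went 1 way in each of the 3 ratios. The exact two-sided permutation p was 0.125 for each, 0.125 after adjustment over the 3, and this is the smallest that 4 pairs allow, so the test could not pass 0.05.

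Tgm2, the transglutaminase, showed the largest change of the 3 enzymes that rose (ENSMUSG00000037820, chromosome 2, 158116402 to 158146436, minus strand, protein-coding). Vehicle libraries held 357, 1715, 1744 and 2422 units and acetate libraries 684, 2544, 2629 and 3164. With replicate 1 set aside the groups did not overlap, as the lowest acetate value, 2544, exceeded the highest vehicle value, 2422. The log2 change was 0.62 ± 0.07 (SE, interval 0.47 to 0.77, limma adjusted p = 3.80e-04), or 53.7% (39.0 to 70.0). The pairs gave 0.94, 0.57, 0.59 and 0.39, with the largest change in the pair whose levels were lowest. Group means were 1560 ± 866 units in vehicle and 2255 ± 1080 in acetate (SD, n = 4). Rprd1b, which overlaps Tgm2 on the opposite strand, had a mean of 1130 units and a log2 difference of 0.02 (adjusted p = 0.78 in limma).

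**Figure D2:**
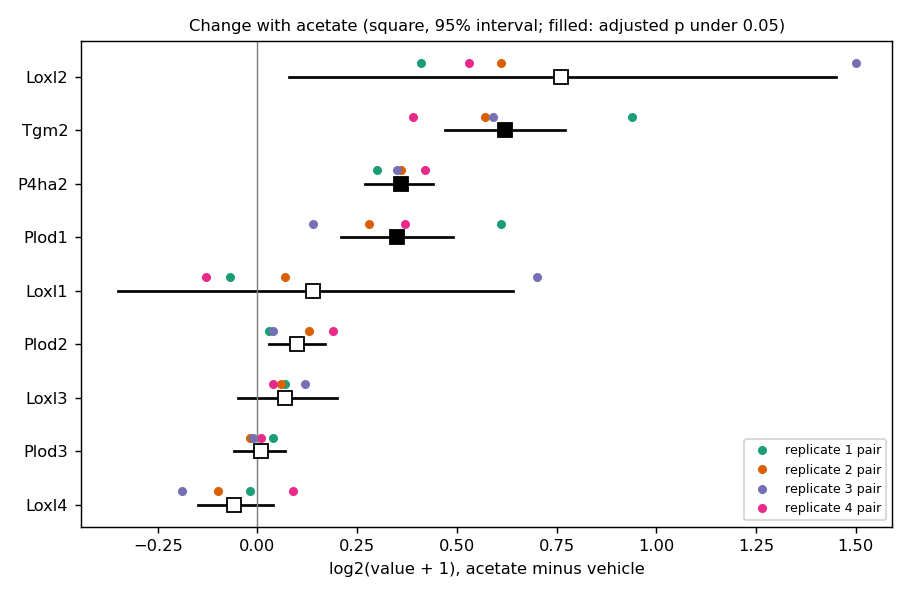
Log2 change with acetate for the 9 measured enzymes on the log2(value + 1) scale, with the limma estimate and its 95% interval and a point for each of the 4 pairs. Tgm2 (0.62), P4ha2 (0.36) and Plod1 (0.35) passed the test, and the interval of Loxl2 (0.08 to 1.45) is the widest.

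None of the 4 lysyl oxidases measured passed the test. Loxl4 had the highest level per length of the 4 (ENSMUSG00000025185, chromosome 19, 42593982 to 42612813, minus strand, protein-coding), with 3519, 2438, 2608 and 1762 units in vehicle and 3468, 2271, 2279 and 1882 in acetate. Unlike most of the list it was highest in replicate 1, and 3 pairs were lower and 1 higher with acetate. The log2 difference was -0.06 ± 0.04 (SE, interval -0.15 to 0.04, limma adjusted p = 0.482).

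Loxl3 (ENSMUSG00000000693, chromosome 6, 83034173 to 83052562, plus strand, protein-coding) had 102, 346, 307 and 409 units in vehicle and 107, 361, 334 and 420 in acetate. Each acetate library was slightly the higher of its pair, by 0.04 to 0.12. The difference of 0.07 ± 0.06 (SE, interval -0.05 to 0.20) did not pass in limma (adjusted p = 0.499). Htra2, on the opposite strand of the same locus, averaged 1320 units, and whether reads were counted by strand is not given in the sources used here.

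Loxl2, which also acts on lysines in basement membrane collagen IV (ENSMUSG00000034205, chromosome 14, 69609068 to 69695834, plus strand, protein-coding), was rare. It had 1.53, 6.51, 4.02 and 6.14 units in vehicle and 2.35, 10.5, 13.2 and 9.34 in acetate, from between 2 and 14 reads a library. The acetate library was the higher in every pair, and without replicate 1 the groups did not overlap. Its log2 change of 0.76 ± 0.31 (SE, interval 0.08 to 1.45) had an unadjusted p of 0.032 and did not pass in limma (adjusted p = 0.173).

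Loxl1, known for elastic fibres (ENSMUSG00000032334, chromosome 9, 58287738 to 58313186, minus strand, protein-coding), had 20.6, 13.8, 17.1 and 15 units in vehicle and 19.6, 14.5, 28.3 and 13.7 in acetate. Only acetate replicate 3 lay above the vehicle range. The log2 difference was 0.14 ± 0.23 (SE, interval -0.35 to 0.64, limma adjusted p = 0.786), with 2 pairs up and 2 down, and it was -0.04 without replicate 3.

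To compare levels between genes, units were divided by the length of the annotated exons. In vehicle the order of mean units per kb was Plod2 (631 ± 192, SD, n = 4), Loxl4 (613 ± 172), Plod3 (439 ± 56.4), Tgm2 (338 ± 188), P4ha2 (143 ± 68.9), Plod1 (112 ± 52.1), Loxl3 (63.2 ± 28.9), Loxl1 (5.05 ± 0.901) and Loxl2 (0.842 ± 0.425). The ranges of neighbours in this order overlapped in both groups, except between Loxl3 and Loxl1 and between Loxl1 and Loxl2. Within single libraries some steps held throughout: Loxl4 was above Plod3, Tgm2 above P4ha2 and Plod1 above Loxl3 in 8 of 8 libraries. Tgm2 exceeded Plod3 in 4 of the 8, namely vehicle replicate 4 and acetate replicates 2 to 4. In acetate the mean was 489 units per kb for Tgm2 and 441 for Plod3, the reverse of the order in vehicle.

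**Figure D3:**
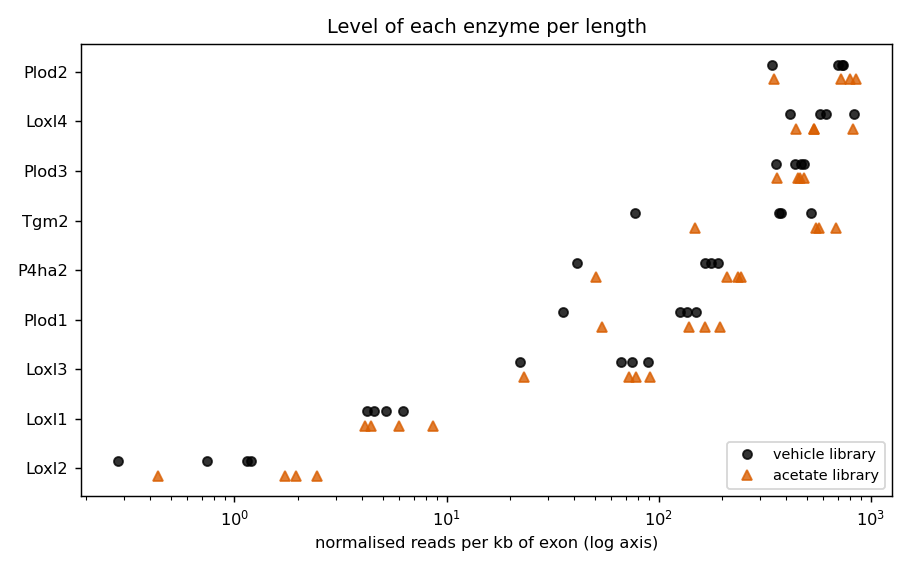
Level of each measured enzyme in units per kb of exon on a log axis, with 1 symbol per library, circles for vehicle and triangles for acetate. The 9 genes span from below 1 (Loxl2) to above 600 (Plod2 and Loxl4, vehicle means), and the 2 rarest are lysyl oxidases.

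Loxl4 made up 88.9 ± 6.22% of the measured lysyl oxidase level per kb in vehicle and 87.9 ± 6.10% in acetate (SD, n = 4), with a lowest share of 81.6% and a highest of 96.7%. Loxl3 held most of the remainder, from 2.55% in vehicle replicate 1 to 17.3% in vehicle replicate 4. These shares leave out Lox. Among the lysyl hydroxylases, Plod2 held 52.4 ± 7.37% of the summed level per kb in vehicle and 52.8 ± 8.42% in acetate, and Plod1 9.02 ± 3.31% and 10.5 ± 3.18%. In replicate 1 Plod3 was the largest of the 3, at 53.7% in vehicle and 52.9% in acetate, whereas in the 6 other libraries Plod2 was.

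The difference between replicate pairs was tested in the same fit. By the limma F-test 58.2% of all genes passed, and 8 of the 9 enzymes did, Loxl1 being the exception (adjusted p = 0.254). The adjusted p in this limma test was 9.40e-11 for P4ha2, 3.15e-09 for Tgm2 and 2.83e-09 for Plod2. In 6 of the 9 enzymes (66.7%) both replicate 1 libraries lay below the 6 others, as in 35.2% of all genes. Those 6 were lower in replicate 1 than in the mean of the others by log2 values of -2.22 for Tgm2, -2.14 for P4ha2, -1.78 for Plod1, -1.78 for Loxl3, -1.59 for Loxl2 and -1.13 for Plod2. Loxl4 went the other way, at 0.68, and was highest in replicate 1, as were 16.8% of genes. Plod3 differed by 0.04.

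The hypoxia response list moved with the same library pair. Of its 12 genes 11 were lowest in both replicate 1 libraries, with a median of -2.33. Its examples Ndrg1 (-3.36) and Bnip3 (-3.04), a mitophagy receptor, differed more than any enzyme here, whereas Ldha (0.05) did not share the pattern. The part of this pattern in the results with acetate was not tested. For Tgm2, P4ha2 and Plod1 the change with acetate passed with and without replicate 1.

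**Figure D4:**
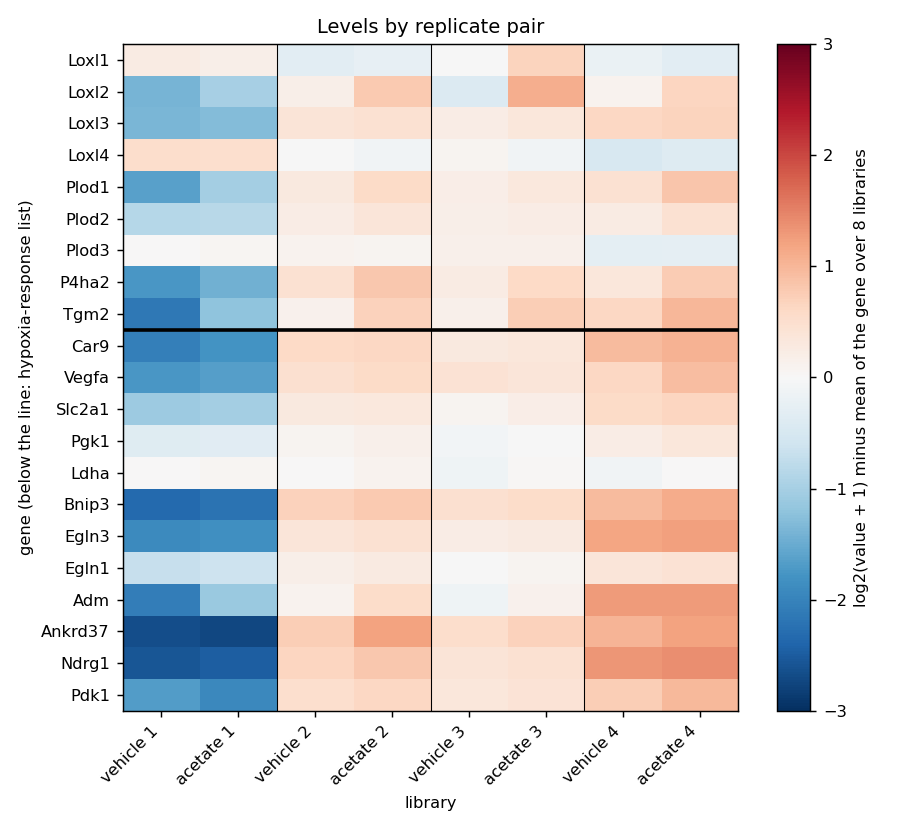
Heat map of log2(value + 1) minus the gene's mean over the 8 libraries, with the 9 enzymes above the line and the 12 hypoxia response genes below it, and libraries ordered by replicate pair on the x axis. P4ha2, Tgm2, Plod1, Loxl3, Loxl2 and Plod2 are lowest (blue) in replicate 1, like 11 of the 12 hypoxia response genes, and Loxl4 is highest there.

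Of the other genes around the pathway, 49 of 60 listed were measured, and 12 rose, 1 fell and 36 did not pass, beside the 5.99% and 2.65% of all genes called. These lists too were written with earlier results of these data known. The collagens and fibronectin on which the enzymes act mostly rose: of 10 listed, 6 were measured, 5 rose and 0 fell, with a median log2 change of 0.31. Col1a1, the alpha 1 chain of collagen I, rose by 1.21 ± 0.15 (SE, adjusted p = 7.61e-04, limma) from a low 38.1 ± 21.3 to 89.7 ± 46.1 units (SD, n = 4), while its partner chain Col1a2 averaged 0.954 and 1.43 units and did not pass. Col5a1, a fibril-nucleating collagen, rose by 0.35 ± 0.03 (adjusted p = 1.99e-04, limma) and Fn1, fibronectin, a Tgm2 substrate, by 0.28 ± 0.03 (adjusted p = 3.38e-04, limma). The basement membrane chains Col4a2 (0.16) and Col4a1 (0.13) rose less, and are named here after their values were seen.

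Among 9 further genes of the prolyl hydroxylase list, which also holds partner proteins such as P4hb and Ppib, all were measured. Of these 1 rose and 1 fell, with a median of -0.01. P4ha1 rose by 0.16 ± 0.03 (adjusted p = 0.0111, limma), and Ppib, the cyclophilin of the prolyl 3-hydroxylase complex, fell by 0.10 (adjusted p = 0.0383, limma). Neither call was stable to leaving out a pair: that of Ppib was lost without any 1 of the 4 (adjusted p from 0.0676 without replicate 1 to 0.226 without replicate 2, limma), and that of P4ha1 without replicate 2, 3 or 4 (0.0591, 0.0989 and 0.074). P4hb, the beta subunit that P4ha1 and P4ha2 share, had a difference of 0.05 ± 0.03 and did not pass (adjusted p = 0.357, limma). The glycosylation and chaperone list (9 of 10 measured) had a median of 0.03 and 1 rise, that of Fkbp14, a prolyl isomerase of the endoplasmic reticulum that binds collagen, by 0.58 ± 0.11 (adjusted p = 0.00664, limma), a call lost without replicate 3 (0.0637) or 4 (0.0576). Serpinh1, the collagen chaperone HSP47, differed by 0.04.

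In procollagen processing 5 of 8 genes were measured and 1 rose, Pcolce, an enhancer of the C-proteinase, by 0.24 ± 0.06 (adjusted p = 0.0241, limma), although only 3 of its 4 pairs went up and the call was lost without replicate 1, 2 or 3 (0.072, 0.149 and 0.172). Bmp1, the proteinase itself, did not pass (adjusted p = 0.989, limma). Of the copper, ascorbate and partner list (8 of 11 measured, median 0.13), Slc23a2, a transporter of the ascorbate that hydroxylases need, rose by 0.24 ± 0.03 (adjusted p = 0.00192, limma). Atp7a, which loads copper onto lysyl oxidases, did not pass, at 0.10 ± 0.04. In the hypoxia list 3 of 12 rose, by small amounts: Ldha by 0.11, Bnip3 by 0.11 and Ndrg1 by 0.10. Of 11 alternatives with the block, the Ldha call held in 6, that of Ndrg1 in 4 and that of Bnip3 in 3.

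**Figure D5:**
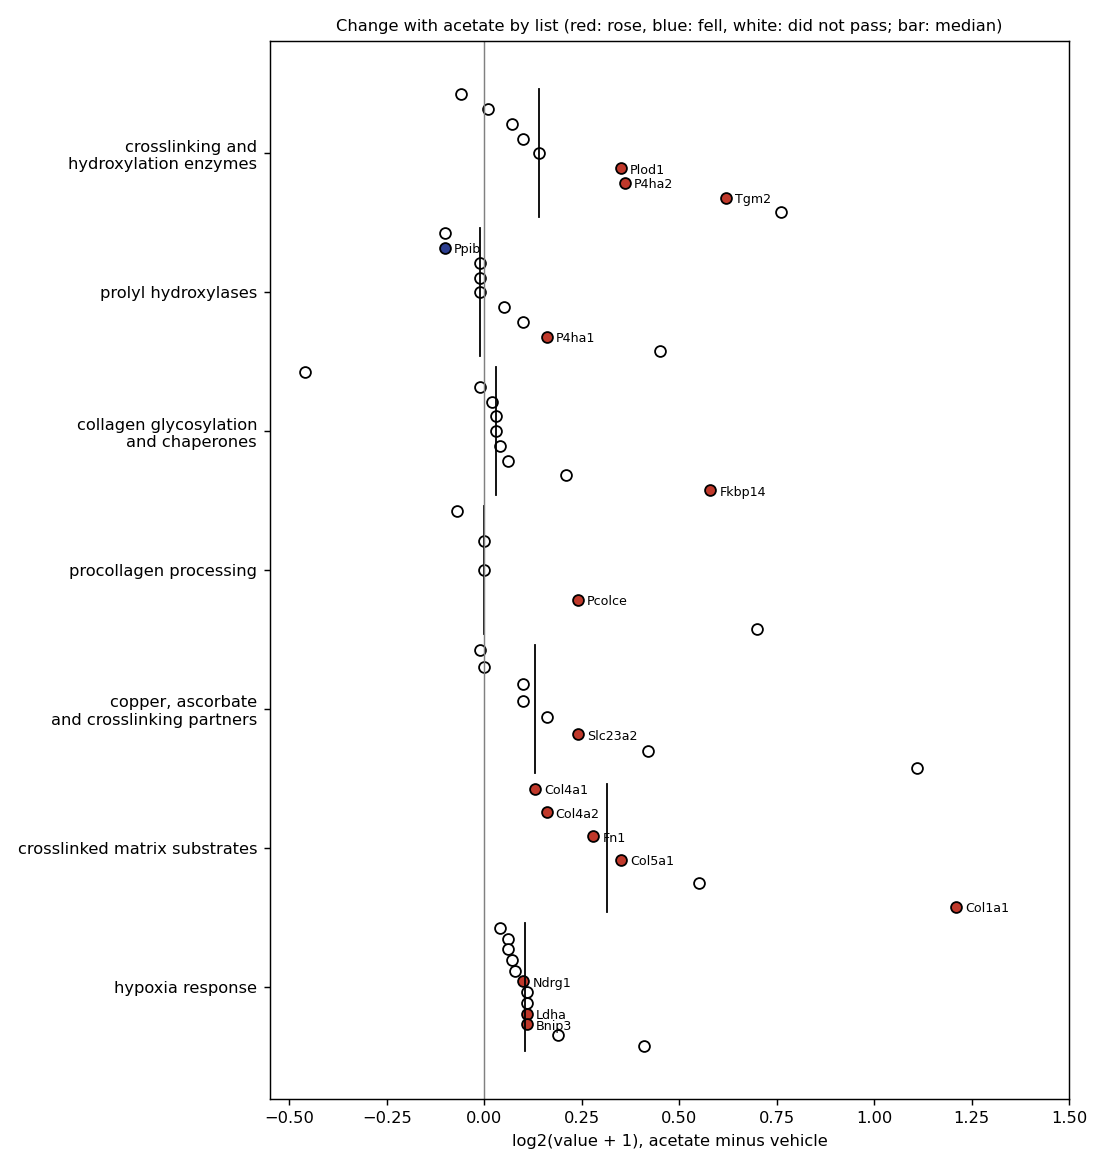
Log2 change with acetate for every measured gene of the enzyme list and of 6 related lists, red where it rose, blue where it fell, white where the test was not passed, and with a bar at each list's median. The matrix substrates have the highest median (0.31), and the prolyl hydroxylase list, partner proteins included, lies around 0 (-0.01).

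The genes whose log2 values followed P4ha2 most closely over the 8 libraries, among 10839 genes with a mean above 64 units, were Kif3a (Pearson r = 0.999), Lifr (0.998) and Itgb3 (0.9977). For Tgm2 they were Sv2a (0.9979), Gstt3 (0.9977) and Cd81 (0.9971). These values describe likeness over libraries in which replicate 1 lies apart, which all the points share, and the log2 changes with acetate of the 6 genes ran from 0.14 for Kif3a to 0.56 for Itgb3.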

How the data were processed

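Alignment by the authors was to the GRCm38/mm10 mouse transcriptome, with gene quantification in STAR, and HTSeq is also named in the submitters' processing notes. The deposited values are a normalised signal: reads per gene divided by the library total, on a sum of 20000000 per library, and every gene in the table was above 0 in at least 4 libraries. All values (100%) were whole multiples of 1 read's worth, within a tolerance of 0.1 read, which gave back the reads, 19.9 to 29.3 M per library (lowest and highest in vehicle replicates 3 and 4). Units to a read ran from 0.682 in vehicle replicate 4 to 1.0053 in vehicle replicate 3. Genes with few reads carry large counting error.

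Identifiers were matched to GENCODE M21, and 20004 of 20189 had a symbol. Exon lengths are unions over transcripts. Limma 3.58.1 (R 4.3.3, lmFit, eBayes with trend, two-sided) was fitted to log2(value + 1), pseudocount 1, over all genes with the replicate number as a block. Fold changes on this scale understate low genes. Same-numbered libraries share a code in the labels and were taken as pairs from the start. Their deviations from group means correlated at 0.814, 0.273, 0.201 and 0.691 for replicates 1 to 4 over 18188 genes. Libraries of different number were not compared in this way, so these values cannot show that the pairing is right. The study describes its 4 replicates as independent experiments, and the p-values rest on differences between these 4 pairs of 1 cell line. In eBayes each gene's variance is drawn towards that of genes at a similar level. The limma SE, intervals and p-values thus do not measure the spread of a gene's own 4 pairs alone. Alternatives were no block, pseudocounts of 0.1 and 5, a minimum mean of 10 units, median-of-ratios and quantile scaling, edgeR 4.0.16 and DESeq2 1.42.0 on the recovered reads, and each pair left out.

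The enzymes and the other lists were chosen with earlier results of these data known. The text names all measured enzymes, from each list the 3 largest changes past the threshold in each direction, and the 3 genes most like each of the 2 enzymes with the smallest p. Outside this rule it also names the cell type markers and some list genes that did not pass, such as P4hb, Serpinh1, Bmp1, Atp7a and Col1a2. Promoters were matched by symbol for 4 of the enzymes. The fit was tested on simulated reads, in which both libraries of a pair shared the same replicate level apart from set changes. That run could not test whether the real libraries are paired so closely.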

Additional observations from a re-analysis of the deposited data

Results flagged for a closer look

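Within groups of 4 libraries, 40 groups of values (20 genes) were tested with Dixon's ratio against its 95% critical value. In 6 a library lay far from the others, where independent groups would give about 1 in 20 by chance, or 2.0 of 40. These groups are not independent, as each gene gives a vehicle and an acetate group and 35.2% of all genes were lowest in both replicate 1 libraries. The 2.0 is thus a rough guide only. Of these 6, 5 were in replicate 1.

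Plod2 in vehicle replicate 1 was at 1855 units, against 3807 to 4006 in the other vehicle libraries (ratio 0.907). P4ha1 in replicate 1 was at 1903 units in vehicle, against 5263 to 5736 (0.876), and at 2019 in acetate, against 5850 to 6480 (0.859). Col5a1 in replicate 1 was at 953.5 units in vehicle, against 2413 to 2546 (0.917), and at 1221 in acetate, against 3102 to 3215 (0.943). Ppib was highest in acetate replicate 3, at 7539 units against 6958 to 7048 (0.844).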

How the results depend on the processing

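Without the replicate block 0 genes passed in limma, and 0 of the enzymes and 0 of the other pathway genes, instead of 1744, 3 and 13. DESeq2 called 1126 genes. Leaving out 1 pair gave 409 (without replicate 3) to 1662 genes (without replicate 1), with 617 without replicate 2 and 539 without replicate 4, 2 to 3 enzymes, 5 to 12 other pathway genes (6 without replicates 2 or 4, 5 without replicate 3), and 6199 (without replicate 1) to 11610 genes that differed between replicates. Higher genes made up 69.3% of those called as reported, 54.9% with median-of-ratios scaling (1000 higher, 821 lower), 54.5% in edgeR, 58.0% in DESeq2 and 80.9% without replicate 3. Tgm2 and P4ha2 passed in 11 of 11 alternatives with the block (highest adjusted p 0.0252 and 0.0177, over limma, edgeR and DESeq2), Plod1 in 10 and Plod2 in 0. Their log2 changes ranged from 0.52 to 0.70, 0.34 to 0.38, 0.27 to 0.42 and 0.07 to 0.12. Plod3 turned negative with median-of-ratios scaling, edgeR and DESeq2 (-0.01 each) and without replicate 1 (range with 1 pair left out -0.0047 to 0.02), and Loxl1 without replicate 3 (range -0.04 to 0.23). The cause was not tested. The minimum mean and the edgeR filter removed Loxl2, and DESeq2 gave no adjusted p for Loxl1 or Loxl2. Loxl2 had between 2 and 14 reads a library and Loxl1 between 17 and 30.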
